A study of Homo sapiens with 12 samples.

Results

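The amino acid transporters were described in 4 stably infected lines of A549, a cell line from a human lung adenocarcinoma. The members were every row of the counts table whose gene symbol belongs to the SLC1A, SLC3A, SLC6A, SLC7A, SLC36A, SLC38A or SLC43A family, which gave 59 of 60623 genes. The families held 7, 2, 19, 13, 4, 11 and 3 members in that order, and the rule reads gene symbols. All 4 lines were made from the same A549 stock with a lentivirus carrying a hygromycin resistance marker, and all were selected with hygromycin. V carried the empty vector, WT carried HA-tagged wild-type AHR, SA carried HA-tagged AHR with S489A, and SD carried HA-tagged AHR with S489D. AHR, the aryl hydrocarbon receptor, is a ligand-activated transcription factor. S489 is the serine that the study examined as a site for the kinase PLK1, an alanine at that position cannot be phosphorylated, and an aspartate there is used as a mimic of phosphoserine. The cells still had their own AHR, the introduced AHR was driven by the constitutive EF1a promoter, and all lines grew in RPMI medium with fetal bovine serum and antibiotics. Poly(A) RNA was sequenced in 12 libraries, 3 per line, which the labels give as biological replicates. A construct and its line cannot be told apart, because there was 1 line for each. Nothing in the labels says whether the replicates were separate cultures, and the p-values then measure only the spread between these libraries.

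Amino acids cross the plasma membrane through carrier proteins whose families differ in substrate and driving force. SLC1 carriers take up glutamate and aspartate, or small neutral amino acids and glutamine, with sodium. SLC7 light chains pair with an SLC3 heavy chain and exchange one amino acid for another, while the cationic carriers of SLC7 work alone. SLC38 carriers take up glutamine and other neutral amino acids, SLC6 carriers use sodium and chloride for taurine, creatine, glycine, neurotransmitters and neutral amino acids, SLC36 carriers use protons, and SLC43 holds facilitators of large neutral amino acids. In lung adenocarcinoma cells these carriers supply glutamine, essential amino acids and cystine, the precursor used for glutathione.

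The total of expected counts was between 7844045 and 11765576 per library. Values of single genes are given as CPM (counts scaled to the library total, with TMM factors), and a count of 0 allows a level of up to 0.255 to 0.382 CPM, depending on the library (3 counts, counting error only). AHR, which checks that the lines had added AHR, had a log2 fold change over V of 1.95 in WT, 1.69 in SA and 1.61 in SD. Its libraries did not overlap those of V in any of the lines. These counts do not tell the wild-type and mutant forms apart. SD had less AHR than WT, with a log2 fold change of −0.35 (adjusted p = 0.00774, edgeR). All WT libraries were also above those of SA (log2 fold change 0.26, adjusted p = 0.136, edgeR), and DESeq2 called this difference. SD against SA gave −0.085 (adjusted p = 0.704, edgeR), with overlapping libraries. Of 6 epithelial markers, KRT7, KRT8 and KRT18 were abundant, CDH1 had mean levels between 112 and 170 CPM, and EPCAM and KRT19 were nearly absent (mean levels of at most 1.46 and 0.346 CPM in any line). Together these markers summed to 7634 to 8012 CPM in V, whereas the sum was 6463 to 6488 for WT, 6207 to 6400 for SA and 5748 to 6085 for SD. Of 10 markers of leukocytes, macrophages, endothelium and fibroblasts, DCN, VWF, CD163 and CD3E were at 0 in every library, and the summed level of all 10 was 47.6 to 62.6 CPM. Of the 3 that were tested, COL1A1 was called lower than in V in WT (log2 fold change −0.79, adjusted p = 0.00649) and SA (−0.60, adjusted p = 0.0278), and CD68 higher in SA (0.36, adjusted p = 0.0320). The epithelial sum follows the keratins, and CDH1 was lower than in V in all AHR lines but had its second highest mean in SD. The part of any of these markers in the results below was not tested. In bulk RNA, fewer cells of a type and less RNA per cell cannot be told apart.

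AHR binds DNA at response elements with the core GCGTG, and ATF4, the transcription factor that many amino acid starvation genes respond to, binds composite elements with the core TGATGNAA. Both motifs were searched on both strands in the 250 bases before each start site of the RefSeq promoter table (GRCh38.p14), where 44 members had 66 promoters. GCGTG was found in 30 of these 66 (45.5%) and in 32.2% of all 35116 promoters, and TGATGNAA in 2 of 66 (3.03%) and in 3.14% of all. Of the 6 members that differed between lines, SLC1A3, SLC6A17 and SLC38A2 were searched, and SLC6A6, SLC6A15 and SLC7A2 were not. The promoters shown are those with a match, and SLC38A2 had neither motif in its window. SLC6A17, a carrier of neutral amino acids in synaptic vesicles, had matches to GCGTG that begin 122 and 44 bases before its start at chr1:110150494 (plus strand). SLC1A3, the glutamate and aspartate carrier, had a TGATGNAA match 220 bases before a distal start and a GCGTG match 189 bases before the start at chr5:36606606 (plus strand). The distal start lies outside the deposited bounds of the gene, and the window of the second start overlaps annotated exons, so only 30 bases around its match are shown. Capitals mark the motif, written CACGC where the match is on the minus strand, and a match is a description of letters, not of binding.
SLC6A17, chr1:110150244-110150493: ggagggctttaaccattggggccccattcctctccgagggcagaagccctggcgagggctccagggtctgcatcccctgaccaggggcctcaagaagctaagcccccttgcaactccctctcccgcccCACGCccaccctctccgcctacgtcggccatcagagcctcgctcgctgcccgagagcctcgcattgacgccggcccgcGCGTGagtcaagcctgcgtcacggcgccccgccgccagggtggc
SLC1A3 distal start, chr5:36596338-36596587: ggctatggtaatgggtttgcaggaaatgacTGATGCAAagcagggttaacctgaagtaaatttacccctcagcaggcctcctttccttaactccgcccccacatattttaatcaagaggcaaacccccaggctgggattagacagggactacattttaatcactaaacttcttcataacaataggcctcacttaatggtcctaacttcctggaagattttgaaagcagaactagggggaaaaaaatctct
SLC1A3 second start, chr5:36606405-36606434: tgaactgacaaaGCGTGaaagtggtctaag

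Of the 59 members, 12 had no count in any library and 19 had counts but were too low to be tested in any comparison, with no library above 1.23 CPM. The other 28 passed edgeR's filter on low counts in at least 1 comparison of lines, and 27 of them passed it in all 6. SLC43A3, the remaining one, passed in SD against SA, SA against V and SD against V, and lay between 0.253 and 2.00 CPM. The members with no count were SLC1A6, SLC6A2, SLC6A3, SLC6A5, SLC6A7, SLC6A18, SLC6A19, SLC7A3, SLC7A13, SLC36A2, SLC38A4 and SLC38A8. These include the transporters of noradrenaline (SLC6A2), dopamine (SLC6A3) and glycine at inhibitory synapses (SLC6A5), and a neutral amino acid carrier of gut and kidney (SLC6A19).

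Levels were compared between genes per kb of canonical transcript. The most abundant transporters were the subunits of 1 exchanger, the leucine carrier LAT1, with mean levels over the 12 libraries of 338 CPM per kb for the light chain SLC7A5 and 264 for the heavy chain SLC3A2. The glutamine carriers SLC1A5 (145 CPM per kb) and SLC38A2 (104) came next, and no other member reached 100. They were followed by the taurine carrier SLC6A6 (54.0), SLC38A10 (48.2), the glutamine carrier SLC38A1 (37.1), the cystine and glutamate exchanger light chain SLC7A11 (24.1), the cationic carrier SLC7A1 (15.5), the light chain SLC7A6 (13.1) and SLC1A3 (9.93). SLC7A5 gave 33.9% of the summed CPM of all members, and the 5 members with the highest CPM gave 72.9%. Summed over all members, V, WT, SA and SD held 4430 ± 122, 4523 ± 118, 4607 ± 95.1 and 4567 ± 213 CPM (mean and standard deviation, n = 3). These sums differed between lines by about as much as the libraries of a line differed from each other. Among the 28 tested members the line with the highest mean was V for 10, SD for 8, SA for 6 and WT for 4.

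**Figure D1:**
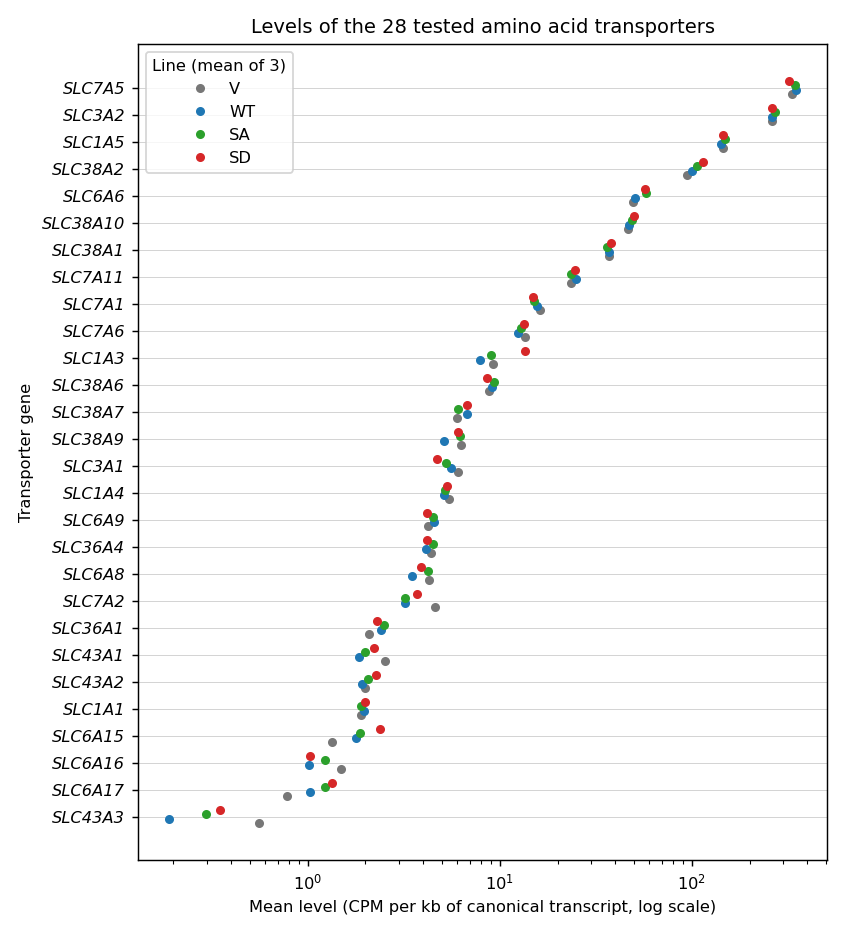
Mean level of each of the 28 tested transporters (CPM per kb of canonical transcript, log scale) in V, WT, SA and SD, each point the mean of 3 libraries. SLC7A5 and SLC3A2 lead in every line, and the points of most genes lie close together. SLC1A3 has SD to the right of the other lines (13.6 CPM per kb, with WT lowest at 7.87). SLC6A15 (1.34 in V to 2.38 in SD) and SLC6A17 (0.780 in V to 1.34 in SD) are spread about as widely, also with SD rightmost. SLC43A3, near the limit of testing, is spread more widely (0.190 in WT to 0.558 in V).

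The lines were compared in all 6 pairs, each fitted over all genes on its own 6 libraries (edgeR's quasi-likelihood test, two-sided, Benjamini-Hochberg adjustment over all genes tested, called at an adjusted p under 0.05). In SD against WT, 1 of 27 tested members was called higher and none lower, where 0.513% of all tested genes were called higher. In SD against SA, 1 of 28 was called higher and none lower, where 0.16% of all genes were called higher. The called member was SLC1A3 both times. In WT against SA none of 27 was called by edgeR, 3 had an unadjusted p under 0.05, DESeq2 called 1 (SLC6A6), and 0.0803% of all genes were called in either direction. In WT against V, 1 of 27 was called lower, where 2.93% of all genes were called lower. In SA against V, 2 of 28 were called higher and 1 lower, where 3.88% and 3.29% of all genes were called higher and lower. In SD against V, 5 of 28 were called higher and none lower, where 2.92% of all genes were called higher and 2.49% lower. Over the 6 comparisons, 6 members accounted for all 11 calls in 165 tests of members, and comparisons that involve the same line share its libraries. The median log2 fold change of the tested members was 0.03 in SD against WT (all genes −0.00080), 0.04 in SD against SA (0.00066), −0.05 in WT against SA (−0.0015), 0.0043 in WT against V (0.0018), −0.00013 in SA against V (−0.0024) and −0.0077 in SD against V (0.0030).

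Of the 5 carriers of acidic amino acids in SLC1, SLC1A3 and SLC1A1 were tested, SLC1A2 and SLC1A7 were too low, and SLC1A6 had no count. SLC1A3 (ENSG00000079215, also called EAAT1 or GLAST) takes up glutamate and aspartate and is encoded on chromosome 5 (GRCh38, 36606355 to 36688334, plus strand). SLC1A3 was at 38.9, 34.1 and 35.7 CPM in the 3 V libraries. In WT its levels were 33.07, 29.96 and 29.48 CPM. In SA they were 35.8, 36.8 and 33.3 CPM, and in SD 57.8, 55.7 and 46.5 CPM. Every SD library was above every library of the other lines, and every WT library was below every library of V and SA, while V and SA overlapped. The means of V, WT, SA and SD were 36.2 ± 2.41, 30.8 ± 1.95, 35.3 ± 1.77 and 53.3 ± 6.02 CPM (± standard deviation, n = 3 each, as for all means below).

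SLC1A3 rose in SD over WT by a log2 fold change of 0.79 (SE 0.093, adjusted p = 4.15e-05, edgeR). It rose in SD over SA by 0.60 (SE 0.090, adjusted p = 0.00323) and in SD over V by 0.55 (SE 0.091, adjusted p = 2.24e-04). WT against V had a log2 fold change of −0.24 (SE 0.089, adjusted p = 0.133) and WT against SA one of −0.19 (SE 0.088, adjusted p = 0.673), and neither passed the test. SA against V had a log2 fold change of −0.05 (SE 0.085, adjusted p = 0.828). The order of the mean levels was SD, V, SA and WT, and only SD differed from its neighbour in that order beyond the test's threshold. All 3 calls of SLC1A3 remained in each of the 13 alternative analyses, leaving out any single library included, with log2 fold changes of 0.72 to 0.89 against WT, 0.53 to 0.69 against SA and 0.49 to 0.65 against V. AHR itself was lower in SD than in WT, and the summed epithelial markers were lowest in SD, where KRT7 was lower than in WT (log2 fold change −0.23, adjusted p = 0.0309) and CDH1 was not (0.17, adjusted p = 0.279). The part of either in the SLC1A3 difference was not tested. The antisense gene SLC1A3-AS1 shares 147 exonic bases with SLC1A3 and had 4 counts over the 12 libraries together, against 4689 for SLC1A3. The other acidic carrier tested, SLC1A1 (EAAT3), was at 5.30 to 8.67 CPM with overlapping libraries in every pair of lines, and its log2 fold change was 0.0075 (SE 0.19) in SD against WT.

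**Figure D2:**
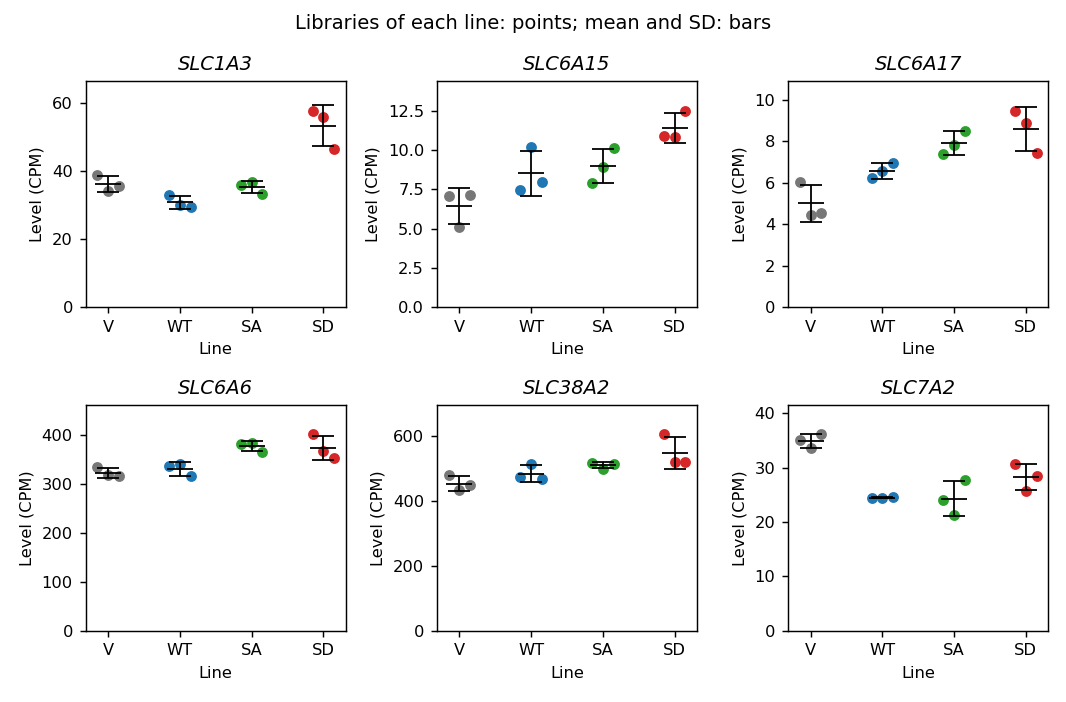
Level in CPM (axis from 0) of the 6 members called in at least 1 comparison, with each library as a point and the mean and SD of each line (n = 3) as bars. The SD libraries of SLC1A3 (46.5 to 57.8 CPM) lie above all others, SLC6A15 and SLC6A17 are lowest in V, and SLC7A2 is highest in V.

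The neutral carriers of SLC1 are SLC1A5 (ASCT2), a glutamine exchanger, and SLC1A4 (ASCT1), which prefers alanine, serine and cysteine. SLC1A5 had mean levels in V, WT, SA and SD of 418 ± 14.3, 411 ± 16.9, 427 ± 11.2 and 419 ± 23.0 CPM, and its libraries overlapped in every pair of lines. The log2 fold change of SLC1A5 in SD against V was 0.0038 (SE 0.055), beside 0.55 for SLC1A3 in the same libraries. An opposite-strand transcript covers 23.4% of the exonic bases of SLC1A5 and had 12235 counts of its own over the 12 libraries. Counting by strand is not stated. The counts of SLC1A5 were whole in every library, which does not show how reads of the shared bases were assigned. SLC1A4 lay between 22.3 and 26.2 CPM over all libraries and was not called.

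Among heavy and light chains, no member was called in any comparison. SLC3A2 (4F2hc or CD98), the heavy chain that brings SLC7A5 and several other light chains to the membrane, had mean levels in V, WT, SA and SD of 492 ± 22.4, 494 ± 34.7, 511 ± 41.9 and 494 ± 32.4 CPM. Its log2 fold changes in the 6 comparisons lay within 0.05 of 0. SLC7A5, which exchanges glutamine for leucine and other large neutral amino acids, had mean levels in V, WT, SA and SD of 1520 ± 50.6, 1591 ± 30.6, 1572 ± 36.9 and 1470 ± 40.6 CPM. All 3 SD libraries of SLC7A5 (1446 to 1516 CPM) were below all 3 of WT (1567 to 1626 CPM), but the log2 fold change was only −0.12 (SE 0.052) with an adjusted p of 0.414. SLC7A11 (xCT), which imports cystine in exchange for glutamate, had mean levels in V, WT, SA and SD of 227 ± 8.21, 240 ± 12.8, 226 ± 6.82 and 237 ± 19.5 CPM, and its libraries overlapped in every pair. The heavy chain SLC3A1 (rBAT), best known from the cystine carrier of the kidney, was at 17.9 ± 3.33 CPM in V and 14.1 ± 1.90 in SD (log2 fold change −0.35, SE 0.14, adjusted p = 0.188). It shares exons with PREPL on the other strand and with a readthrough gene. The readthrough gene had 24.7 counts over the 12 libraries, against 1926.61 for SLC3A1. SLC3A1 is the single member whose expected counts were not whole in some libraries, so its value is less certain. SLC7A6 (y+LAT2) had mean levels in V, WT, SA and SD of 85.1 ± 4.19, 77.4 ± 1.85, 80.8 ± 0.913 and 83.6 ± 10.3 CPM, and 44.4% of its exonic bases overlap SLC7A6OS on the other strand. The light chains SLC7A7, SLC7A8, SLC7A9 and SLC7A10 were too low to be tested.

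Of the 5 cationic carriers and relatives in SLC7, SLC7A1 and SLC7A2 were tested. SLC7A2 (CAT2), a carrier of arginine, lysine and ornithine, was at 35.1, 33.6 and 36.1 CPM in the V libraries. It was at 24.5, 24.4 and 24.6 CPM in WT and at 24.0, 21.2 and 27.75 CPM in SA. In SD the levels of SLC7A2 were 30.6, 25.7 and 28.5 CPM. V lay above all of the other libraries. SLC7A2 fell by 0.51 on the log2 scale in WT against V (SE 0.090, adjusted p = 3.65e-04, edgeR) and by 0.53 in SA against V (SE 0.098, adjusted p = 7.05e-04), and both calls remained in all 13 alternatives. In SD against V its log2 fold change was −0.30 (SE 0.093, adjusted p = 0.0557), which did not pass, although 3 of 13 alternatives called it (adjusted p = 0.0490 with at least 10 counts in each library, 0.0344 with edgeR's exact test and 0.0280 without SD replicate 1). SD against the other AHR lines did not pass either, with a log2 fold change of 0.21 against WT (SE 0.10, adjusted p = 0.474) and 0.22 against SA (SE 0.11, adjusted p = 0.591). SLC7A1 (CAT1), the more abundant carrier of the same substrates, had mean levels in V, WT, SA and SD of 119 ± 3.16, 115 ± 7.64, 111 ± 7.41 and 109 ± 0.518 CPM. It was called in no comparison, and its log2 fold change in SD against V was −0.12 (SE 0.058, adjusted p = 0.287).

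SLC6 is the family with the most members and the most members without a count, and 6 of its 19 members were tested. SLC6A15, SLC6A17 and SLC6A6 were called in at least 1 comparison, and SLC6A8 (creatine), SLC6A9 (glycine) and SLC6A16 in none. SLC6A15 (ENSG00000072041, B0AT2), a sodium-dependent carrier of branched-chain amino acids and proline that is best known from the brain, lies on the minus strand of chromosome 12 from 84859491 to 84913615. Its levels were 7.06, 5.09 and 7.17 CPM in V and 7.48, 10.2 and 7.95 in WT. In SA its levels were 7.90, 8.93 and 10.1 CPM, and in SD 10.9, 10.8 and 12.5. The libraries of SD were above those of every other line, and those of WT and SA overlapped each other and lay above V. SLC6A15 rose in SD over V by a log2 fold change of 0.83 (SE 0.18, adjusted p = 0.00402, edgeR), and the call remained in all 13 alternatives. SD against WT gave a log2 fold change of 0.41 (SE 0.16, adjusted p = 0.336) and SD against SA 0.35 (SE 0.15, adjusted p = 0.545). WT against V gave 0.41 (SE 0.20, adjusted p = 0.276) and SA against V 0.47 (SE 0.19, adjusted p = 0.147). At 48 to 140 counts per library, SLC6A15 was measured far less precisely than the abundant carriers.

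SLC6A17 (ENSG00000197106), whose promoter is shown above, lies on the plus strand of chromosome 1 from 110150494 to 110202202. The V libraries held 6.04, 4.45 and 4.53 CPM of SLC6A17, and those of WT 6.21, 6.54 and 6.96. The SA libraries held 7.40, 7.82 and 8.51 CPM, and those of SD 9.48, 8.90 and 7.42. V lay below all libraries with introduced AHR, WT lay below SA and SD, and SA and SD overlapped. SLC6A17 rose in SD over V by a log2 fold change of 0.77 (SE 0.20, adjusted p = 0.0206, edgeR). In SA against V the log2 fold change was 0.65 (SE 0.20, adjusted p = 0.0501), which 6 of 13 alternatives called (adjusted p = 0.0319 to 0.0422), and in WT against V it was 0.39 (SE 0.22, adjusted p = 0.382). The call in SD against V was lost when V replicate 2, V replicate 3, SD replicate 1 or SD replicate 2 was left out, with adjusted p-values of 0.0875, 0.0943, 0.0764 and 0.0831. Its 42 to 96 counts per library make it the called member with the lowest count.

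SLC6A6 (ENSG00000131389, TauT), the carrier of taurine and beta-alanine, lies on the plus strand of chromosome 3 from 14402576 to 14489349 and was by far the most abundant SLC6 member. Its levels were 335, 317 and 316 CPM in V and 335, 341 and 315 in WT. They were 381, 383 and 365 CPM in SA and 401, 366 and 352 in SD. All libraries of SA and SD were above all libraries of V and WT, while V and WT overlapped, as did SA and SD. SLC6A6 rose by a log2 fold change of 0.22 in SA over V (SE 0.048, adjusted p = 0.00429, edgeR) and of 0.21 in SD over V (SE 0.057, adjusted p = 0.0288). In WT against V its log2 fold change was 0.03 (SE 0.045, adjusted p = 0.787). The call in SA against V remained in all 13 alternatives, whereas that in SD against V was lost when V replicate 1, 2 or 3 or SD replicate 1 or 2 was left out, with adjusted p-values of 0.0591, 0.126, 0.150, 0.0798 and 0.0831. Between AHR lines, the log2 fold change of SLC6A6 was −0.18 in WT against SA (SE 0.047, adjusted p = 0.228) and 0.17 in SD against WT (SE 0.058, adjusted p = 0.215).

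**Figure D3:**
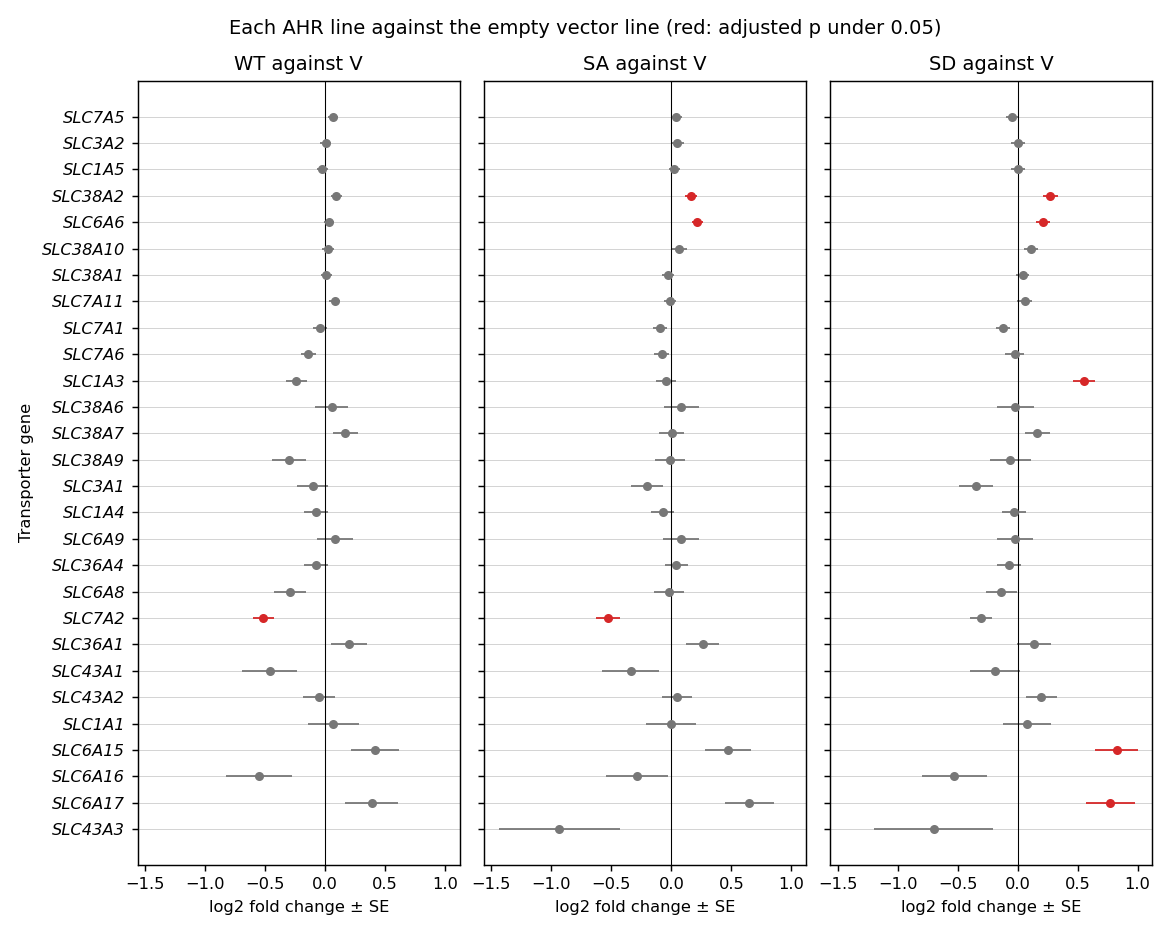
log2 fold change (point) and its standard error (bar) of the tested members in WT, SA and SD, each against the empty vector line V, ordered by mean level per kb, with an adjusted p under 0.05 in red. SLC7A2 is red on the left in WT and SA, SLC6A6 and SLC38A2 on the right in SA and SD, and SLC1A3, SLC6A15 and SLC6A17 on the right in SD.

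In SLC38, the sodium-coupled neutral amino acid transporters, 6 of 11 members were tested and 1 was called. SLC38A2 (ENSG00000134294, SNAT2), a glutamine and alanine carrier that cells raise when amino acids are scarce, lies on the minus strand of chromosome 12 from 46358188 to 46372773. SLC38A2 was at 479, 431 and 448 CPM in V and at 472, 512 and 466 CPM in WT. Its levels were 516, 498 and 514 CPM in SA and 604, 517 and 519 CPM in SD. Every SD library was above every library of the other lines, SA lay above V, and WT overlapped V and SA. SLC38A2 rose in SD over V by a log2 fold change of 0.27 (SE 0.062, adjusted p = 0.00643, edgeR) and in SA over V by 0.16 (SE 0.048, adjusted p = 0.0351). The first call was lost without V replicate 2 (adjusted p = 0.0734) or V replicate 3 (0.0514). The second was lost without replicate 2 or 3 of V (adjusted p = 0.165 and 0.133), without replicate 2 or 3 of SA (0.0621 and 0.120) and when one fit took all 12 libraries (0.0909). In SD against WT its log2 fold change was 0.18 (SE 0.061, adjusted p = 0.244), and in SD against SA 0.11 (SE 0.063, adjusted p = 0.666).

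SLC38A1 (SNAT1), the neighbour of SLC38A2 on chromosome 12 (46183063 to 46270017, minus strand) with a similar substrate range, had mean levels in V, WT, SA and SD of 299 ± 14.6, 301 ± 10.6, 295 ± 14.1 and 308 ± 16.1 CPM. Its libraries overlapped in every pair of lines, and its log2 fold change in SD against V was 0.04 (SE 0.057). SLC38A10, second in the family by level per kb, had mean levels in V, WT, SA and SD of 209 ± 9.27, 212 ± 8.45, 219 ± 28.5 and 225 ± 9.58 CPM and was not called. SLC38A9, the lysosomal arginine sensor that acts upstream of mTORC1, was at 10.1 to 19.7 CPM, and SLC38A6 and SLC38A7 were at 10.7 to 16.8 and 21.50 to 30.03 CPM. None of the latter 3 was called.

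The proton-coupled carriers and the facilitators gave no call in any comparison. SLC36A1 (PAT1), which exports amino acids from the lysosome, was at 11.03 to 16.35 CPM and SLC36A4 at 23.0 to 29.4 CPM. SLC43A1 (LAT3) and SLC43A2 (LAT4), facilitators of leucine and other large neutral amino acids, were at 3.20 to 7.38 and 13.3 to 20.1 CPM. SLC43A3, a purine base carrier by function, was near the limit of what the depth allows to be tested.

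Other genes that handle amino acids were counted as lists. Of 21 other carriers, which bring amino acids into mitochondria, lysosomes or vesicles or carry peptides, 12 or 13 were tested in each comparison and none was called by edgeR, with up to 3 at an unadjusted p under 0.05 (in SA against V). Of 26 genes of amino acid sensing (such as the Rag and LAMTOR proteins, GATOR subunits, sestrins, ATF4, DDIT3, TRIB3 and CHAC1), 25 or 26 were tested and none was called by edgeR, with up to 4 at an unadjusted p under 0.05 (in SD against V). The ATF4 targets ASNS, PSAT1 and PHGDH were counted among the enzymes instead. DESeq2 called none of the carriers and sensing genes either, but gave no adjusted p to 12 of the 13 carriers and 24 of the 26 sensing genes in WT against SA. Of 29 enzymes of amino acid metabolism, 27 or 28 were tested. None of the enzymes was called by edgeR between AHR lines, where 5 had an unadjusted p under 0.05 for SD against WT, 3 for SD against SA and 2 for WT against SA. DESeq2 called none of these either, with no adjusted p for 21 of the 28 in WT against SA. Of 28 enzymes tested against V, 1 was called lower in WT (2.93% of all genes), 1 higher and 3 lower in SA (3.88% and 3.29%), and 4 lower in SD (2.49%), and these calls fell on 5 enzymes. Their median log2 fold changes in WT, SA and SD against V were 0.0029, 0.03 and 0.0066. DESeq2 called 0 enzymes in WT, 1 higher and 2 lower in SA, without GLUL, and the same 4 lower in SD.

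GLUL, glutamine synthetase, had mean levels in V, WT, SA and SD of 7.08 ± 0.566, 4.23 ± 0.767, 4.35 ± 0.564 and 3.68 ± 0.836 CPM. It fell by 0.93 on the log2 scale in SD against V (SE 0.23, adjusted p = 0.0125, edgeR) and by 0.70 in SA against V (SE 0.21, adjusted p = 0.0436), and in WT against V it had a log2 fold change of −0.73 (SE 0.22, adjusted p = 0.0534). ASNS, which makes asparagine from aspartate and glutamine, had mean levels in V, WT, SA and SD of 104 ± 5.55, 90.0 ± 3.89, 71.9 ± 6.15 and 77.5 ± 7.31 CPM. It fell against V in all AHR lines, by 0.20 in WT (adjusted p = 0.0427), 0.53 in SA (adjusted p = 5.93e-06) and 0.42 in SD (adjusted p = 3.75e-04). PSAT1, of serine synthesis, fell by 0.24 in SA (adjusted p = 0.00527) and 0.26 in SD (adjusted p = 0.00346), and PHGDH, the first enzyme of the same route, by 0.30 in SD (adjusted p = 0.00824). OAT, which links ornithine and glutamate, rose by 0.25 in SA (adjusted p = 0.0224).

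**Figure D4:**
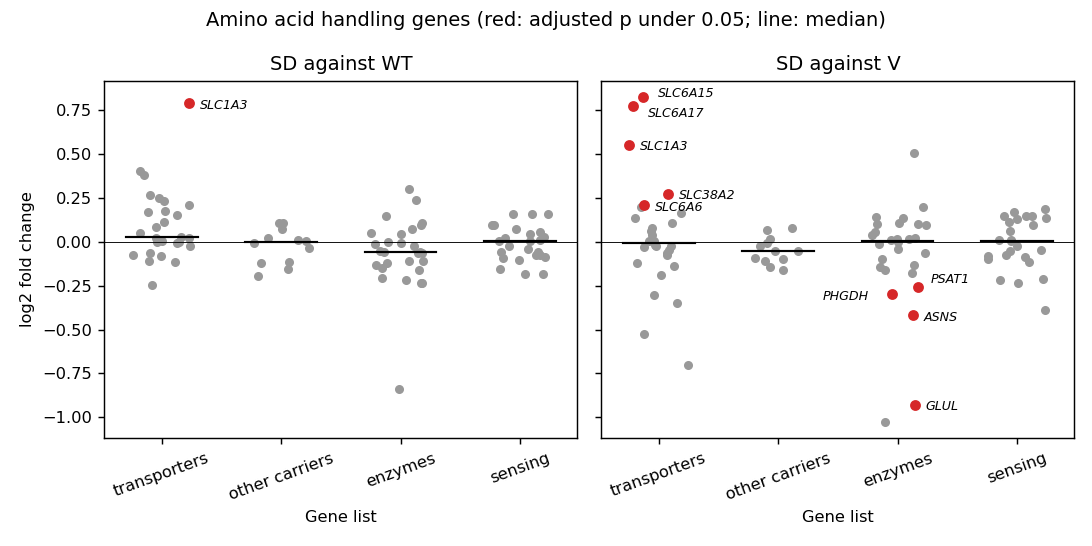
log2 fold change of each tested transporter, other amino acid carrier, enzyme of amino acid metabolism and sensing gene in SD against WT (left) and SD against V (right), with an adjusted p under 0.05 in red and the median of each list as a line. On the left SLC1A3 is the single red gene, and on the right all 5 red transporters are above 0 and all 4 red enzymes below 0. The list medians lie between −0.057 (enzymes) and 0.03 (transporters) on the left. On the right they are −0.0077 for transporters, −0.054 for other carriers, 0.0066 for enzymes and 0.0059 for sensing genes.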

How the data were processed

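RNA of 4 A549 lines with 3 libraries each was analysed. Per the methods, the authors trimmed reads with Trimmomatic 0.39, ran RSEM against the transcripts of GRCh38 and deposited its expected counts per gene, not normalized. RSEM divides reads that fit several genes, and 3.24% to 3.61% of the values of a library were not whole (tolerance 0.001). The expected counts deposited by the authors were rounded. The count columns of SA and SD were assigned by the residue letter in their names, A and D. A table deposited by the authors with their own log2 fold changes, p-values and q-values was not used. Strand, annotation release and the test within edgeR are not given in the sources used here.

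Each pair of lines was fitted over all genes in R 4.3.3 with edgeR 4.0.16 (filterByExpr with minimum count 10 and minimum total 15, TMM, quasi-likelihood test, Benjamini-Hochberg, called at an adjusted p under 0.05). Standard errors were derived from the F statistics. CPM used TMM factors over the 12 libraries, and levels per kb used the Ensembl canonical transcript of GENCODE release 44, which holds all 59 members, 46 of them with the deposited start and end. Depth per library (7844045 to 11765576 counts) sets the precision of low genes. No library was a copy of another of its line. The chi-square per degree of freedom over genes between libraries of a line was highest for SD replicates 1 and 3 (6.88). It was 4.81 for SA replicates 1 and 3 and lowest for WT replicates 1 and 3 (2.5). The code was tested on simulated data. Alternatives were DESeq2 1.42.0 or its size factors alone, edgeR's exact test, a looser filter (1 count in all) and a stricter one (10 counts in each library), one fit of the 12 libraries, a replicate block and each library left out. Figures were drawn with matplotlib 3.10.9.

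The members and gene lists were chosen with earlier results of these data known. Named with values were SLC1A3, the heavy chains and tested light chains, members called in any comparison, the 10 most abundant members per kb, and called genes of the other lists. Other members named by their range were chosen after their values were seen. SLC7A2 is given without its position.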

Additional observations from a re-analysis of the deposited data

Results flagged for a closer look

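The effect of an AHR construct on SLC1A3, measured against the empty vector line, differed between constructs. The difference between the effects of SD and WT is the log2 fold change of SD against WT, 0.79 (adjusted p = 4.15e-05, edgeR's quasi-likelihood test), and all 3 SD libraries were above all 3 WT libraries. The difference between the effects of SD and SA is 0.60 (adjusted p = 0.00323), again with all 3 SD libraries above all 3 SA libraries. Both values are among those given in the text above and carry the same limit of 1 line per construct. With 3 libraries per line, single libraries were checked only by leaving each one out, and both calls remained.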

How the results depend on the processing

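In the 13 alternatives of each comparison, no call of a member changed direction. The 3 calls of SLC1A3, both calls of SLC7A2, SLC6A15 in SD against V and SLC6A6 in SA against V were kept in all of them. The 4 other calls were lost when single libraries were left out, and 1 of them, SLC38A2 in SA against V, also with all 12 libraries in one fit. The number of members called in SD against V was 5 and ranged from 2 to 5 with a library left out, being 2 without V replicate 2 or V replicate 3 and 3 without SD replicate 2. In SA against V it was 3 and ranged from 2 to 4. In WT against SA, 0 members were called, and 1, SLC6A6, without the filter on low counts and with DESeq2. Apart from these and SD against WT with the block below, counts were within 1.5 times those reported above. Calls gained were SLC6A17 in SA against V (6 of 13 alternatives), SLC7A2 in SD against V (3 of 13) and SLC6A6 between AHR lines (1 of 13 in SD against WT, 2 of 13 in WT against SA). Fewer libraries give a weaker test by construction, and otherwise the cause was not tested.

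With the replicate number as a block, 2 members were called in SD against WT, SLC1A3 and SLC6A6, in place of 1, and 4 in SA against V, with SLC6A17, in place of 3. The block changed no call of WT against SA, SD against SA, WT against V or SD against V. Correlations between libraries of one number were weak (−0.0375 to 0.106 across genes). In every pair of AHR lines they were higher (0.0171 to 0.0549) than those between different numbers (at most 0.0119). Against V they were higher for some numbers and lower for others. Over all genes, the block raised the calls from 105 to 245 in SD against WT and from 33 to 165 in SD against SA. It also raised them from 12 to 25 in WT against SA and from 1069 to 1345 in SA against V. It lowered them from 774 to 507 in WT against V and from 806 to 664 in SD against V. The main fits did not use the numbers as pairs. Depth limits the precision of genes with few counts, such as SLC6A15 and SLC6A17.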
